A study of Homo sapiens with 6 samples.

Results

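The genes described here are 53 genes of mitosis and the G2/M transition, taken from a list of names by their role in cell division, a list drawn up with earlier results of these arrays known. All 53 were measured among the 11963 genes tested. Each gene was read from 1 probe set, the brightest by its mean level of those that the annotation gives to that gene alone. Human breast carcinoma lines of the invasive lobular type were compared, with 3 arrays in each of 2 groups. SUM44, labelled sensitive to tamoxifen, was given 500 nM 4-hydroxytamoxifen (4HT), the active form of the drug, for 24 hours. LCCTam, labelled resistant and known as a derivative of SUM44, was kept without 4HT for 14 days. Both lines carry the labels ER+ and PR+ and were grown sub-confluent in the medium SFIH (Ham's F12), and each group stands for 1 line. Line and drug exposure differ together in the only comparison of the design and cannot be told apart. The question was how transcripts of cell division stand in the resistant line against the sensitive line under the drug.

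Cells enter mitosis when CDK1, bound to cyclin A or B, is switched on by CDC25 phosphatases. Aurora and polo-like kinases then build the spindle, the spindle assembly checkpoint holds anaphase until every kinetochore is attached, and the anaphase-promoting complex (APC/C) with CDC20 ends the process by degrading cyclin B and securin. The genes of this programme are transcribed late in the cell cycle by the MuvB complex with MYBL2 and FOXM1, and estrogen receptor positive breast cells given an antiestrogen are known to lower them as they leave the cycle. In RNA from whole cultures, a change in the share of dividing cells and a change in RNA per dividing cell cannot be told apart.

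Promoters of such genes are known for CCAAT boxes, bound by NF-Y, and for the CHR element TTTGAA, bound by MuvB. Both words were searched on both strands (as CCAAT or ATTGG, and as TTTGAA or TTCAAA; adjoining matches of the 2 words can share an end base) in RefSeq windows of 300 bases, from 250 before to 50 after a start site on build GRCh38.p14, with the most 5′ window standing for a gene. A window was given for 43 of the 53 genes. CCAAT was found in 29 of them (67.4%), against 35.7% of all 27305 genes with a window. TTTGAA was found in 28 (65.1%), against 15.5% of all genes with a window, and both words in 21 (48.8%), against 6.13%. Among measured genes with a window the shares were 37.2%, 11.1% and 4.82%. Windows are shown for 4 members that were higher in LCCTam and for 2 that had among the lowest differences, so that the genes moving together and those that did not can be set side by side. Capitals mark CCAAT and TTTGAA on either strand.
AURKB, chr17:8210200-8210499, minus strand: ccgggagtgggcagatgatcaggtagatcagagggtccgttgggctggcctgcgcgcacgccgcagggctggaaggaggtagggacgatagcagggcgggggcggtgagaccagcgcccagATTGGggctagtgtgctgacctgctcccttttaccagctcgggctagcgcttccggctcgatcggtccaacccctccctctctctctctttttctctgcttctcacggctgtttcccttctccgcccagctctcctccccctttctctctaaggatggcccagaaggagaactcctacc
CCNB2, chr15:59104896-59105195, plus strand: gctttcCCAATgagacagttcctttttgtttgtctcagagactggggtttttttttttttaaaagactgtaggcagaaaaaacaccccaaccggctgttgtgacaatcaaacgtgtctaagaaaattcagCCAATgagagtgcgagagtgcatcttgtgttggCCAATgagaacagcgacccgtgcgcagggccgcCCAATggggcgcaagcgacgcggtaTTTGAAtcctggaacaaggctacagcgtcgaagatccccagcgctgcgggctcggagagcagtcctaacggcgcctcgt
NCAPD2, chr12:6493852-6494151, plus strand: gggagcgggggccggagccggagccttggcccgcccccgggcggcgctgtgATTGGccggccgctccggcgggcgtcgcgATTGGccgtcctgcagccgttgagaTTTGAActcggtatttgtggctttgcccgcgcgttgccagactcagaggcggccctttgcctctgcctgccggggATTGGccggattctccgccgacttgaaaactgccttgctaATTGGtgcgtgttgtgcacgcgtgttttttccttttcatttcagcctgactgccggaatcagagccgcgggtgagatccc
CDC25C, chr5:138338306-138338605, minus strand: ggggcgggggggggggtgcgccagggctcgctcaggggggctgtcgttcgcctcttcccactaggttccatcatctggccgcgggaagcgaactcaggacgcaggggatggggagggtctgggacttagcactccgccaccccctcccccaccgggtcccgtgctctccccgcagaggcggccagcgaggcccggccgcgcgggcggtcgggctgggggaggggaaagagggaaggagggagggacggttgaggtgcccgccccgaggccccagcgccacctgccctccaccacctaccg
SMC4, chr3:160399400-160399699, plus strand: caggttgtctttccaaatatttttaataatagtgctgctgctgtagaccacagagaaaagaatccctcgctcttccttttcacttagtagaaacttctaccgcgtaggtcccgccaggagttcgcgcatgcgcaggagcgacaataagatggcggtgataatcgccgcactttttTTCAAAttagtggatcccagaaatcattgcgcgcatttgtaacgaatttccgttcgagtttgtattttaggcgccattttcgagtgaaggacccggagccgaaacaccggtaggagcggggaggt
NEK2, chr1:211675572-211675871, minus strand: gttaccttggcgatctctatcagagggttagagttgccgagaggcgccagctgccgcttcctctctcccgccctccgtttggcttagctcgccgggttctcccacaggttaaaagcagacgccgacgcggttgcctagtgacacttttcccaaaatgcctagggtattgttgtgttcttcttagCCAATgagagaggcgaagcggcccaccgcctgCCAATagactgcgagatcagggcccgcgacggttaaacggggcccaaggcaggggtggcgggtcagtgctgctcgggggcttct
In the CCNB2 window 4 CCAAT boxes all pointed forward, the nearest 54 bases before the start site, and a TTTGAA stood 29 bases before it. NCAPD2 also held 4 CCAAT boxes, all in reverse, with TTTGAA 145 bases upstream. AURKB held 1 reverse CCAAT, and its window did not contain the letters TTTGAA. The window shown for CDC25C held neither word, while 2 of the 4 windows listed for this gene did hold a match. SMC4 held TTTGAA in reverse and no CCAAT, and NEK2 held 2 CCAAT boxes. Of the 9 members called higher that have a window, 8 held CCAAT and 5 held TTTGAA; of the 34 not called, 21 and 23 did. These matches are a description of letters in a window.

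The arrays were not equally alike. Correlations over genes were 0.994 to 0.995 among the SUM44 arrays and 0.958 to 0.987 among the LCCTam arrays, and the array of LCCTam replicate 1 was closer to those of SUM44 (0.972 to 0.974) than to LCCTam replicate 3 (0.958). Poly-A spike-in controls averaged 7.10, 7.45 and 7.70 in LCCTam replicates 1, 2 and 3 and 6.68 to 7.15 in SUM44, and ACTB 3' minus 5' probe sets gave 0.08, -0.05 and 0.21 against -0.11 to -0.05, while those of GAPDH gave 0.00, 0.11 and 0.01 against -0.06, 0.00 and 0.20. Of the markers of the labelled cell type, ESR1 stood at 11.72, 11.42 and 11.73 in SUM44 and at 10.71, 10.29 and 9.65 in LCCTam, a difference of -1.40 log2. GATA3 stood at 11.57 to 11.97 in SUM44 and at 12.80 to 12.87 in LCCTam. PGR stood at 3.89 to 4.34, under 5.93, the level below which the dimmest genes lay (lower quartile of means over arrays). So dim a probe set may hold background alone. Of 9 markers of the labelled type 4 (KRT8, KRT18, KRT19 and ESR1) were called lower and 1 (GATA3) higher in LCCTam, where 6.6% and 9.18% of all genes were. Their part in the results was not tested. None of 6 fibroblast and 5 measured leukocyte markers was called, with 0 and 1 at an unadjusted p under 0.05. The titles call the samples biological replicates without saying how cultures were separated, so the tests rest on spread that may be technical.

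Of the 53 genes, 13 were higher in LCCTam at an adjusted p under 0.05 and none was lower, by the moderated test of limma over all genes. That is 24.5% higher, where 9.18% of all genes tested were called higher and 6.6% lower. The 13 were AURKB, BIRC5, CDC25C, CDC20, UBE2C, FOXM1, KIF20A, CCNB2, NCAPD2, ESPL1, TROAP, NCAPH and CENPA, and they rose 1.37- to 2.35-fold. The other 40 were not called, and 20 of the 53 (37.7%) had an unadjusted p under 0.05, where 31.4% of all genes did, among them KIF14 and PLK4 as the lower ones (0.0237 and 0.0390). Differences, LCCTam minus SUM44 on the log2 scale, were positive for 27 members and negative for 26, with a median of 0.00 and quartiles of -0.30 and 0.49, beside a median of 0.08 over all genes. All LCCTam arrays lay above all SUM44 arrays for 19 members (35.8%, where 21.8% of all genes did so) and below them for 1 (where 13.5% did so). So the list did not move as a block: a set of its genes was higher in every LCCTam array, and many others parted the LCCTam arrays from each other. Without LCCTam replicate 1 the count was 16 higher and 12 lower, where 18.7% and 16.8% of all genes were called higher and lower, and the members' median was -0.09.

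**Figure D1:**
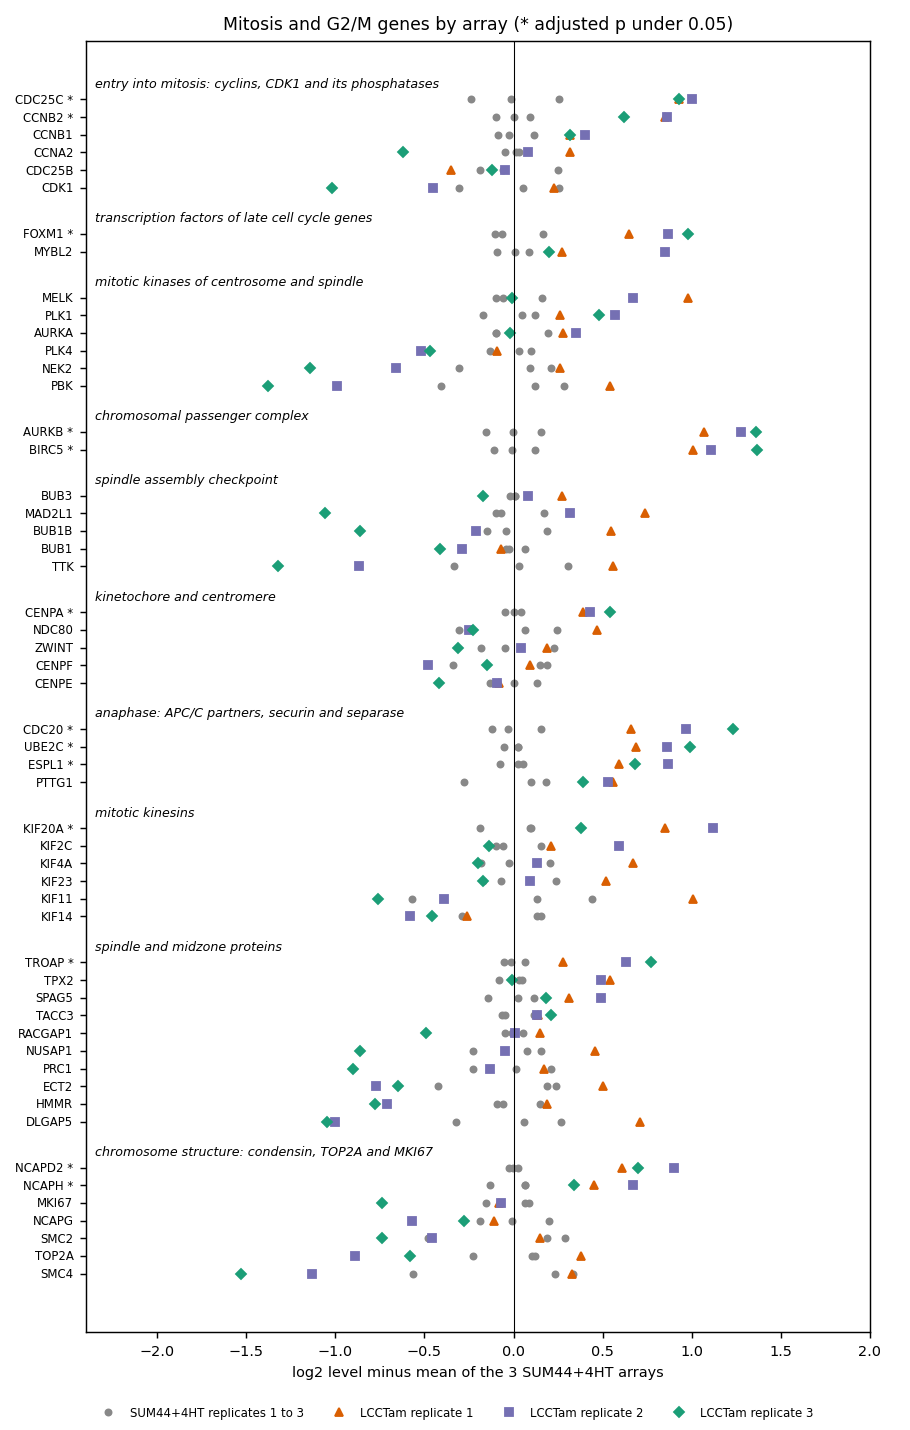
Log2 level of each of the 53 genes in each array minus the mean of the 3 SUM44+4HT arrays, grouped by role; grey circles are the SUM44+4HT arrays, triangles, squares and diamonds are LCCTam replicates 1, 2 and 3, and an asterisk marks an adjusted p under 0.05. AURKB, BIRC5, CDC20 and UBE2C lie to the right in all 3 LCCTam arrays, while TTK, PBK, DLGAP5 and SMC4 lie to the right in replicate 1 and to the left in replicates 2 and 3.

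Both members of the chromosomal passenger complex, which corrects faulty attachments at the centromere and steers cytokinesis, were higher in LCCTam. AURKB, its kinase, stood at 7.37, 7.21 and 7.06 in SUM44 replicates 1, 2 and 3 and at 8.28, 8.49 and 8.57 in LCCTam. Every LCCTam array was above every SUM44 array, and the rise was 2.35-fold (1.23 ± 0.13 SE, adjusted p = 0.00117). BIRC5 (survivin), which docks the kinase to chromatin, stood at 8.45, 8.32 and 8.22 in SUM44 and at 9.34, 9.44 and 9.70 in LCCTam. The groups again did not overlap, and the rise was 2.24-fold (1.16 ± 0.13, adjusted p = 0.00156). Further probe sets of BIRC5 gave 0.81 and 0.93, both called among all probe sets (adjusted p = 0.00723 and 0.00543).

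Genes that drive the exit from metaphase were higher as well, with 3 of 4 called. CDC20, which activates the APC/C, stood at 8.42, 8.23 and 8.14 in SUM44 and at 8.92, 9.23 and 9.50 in LCCTam. It rose 1.93-fold (0.95 ± 0.16, adjusted p = 0.00867), with replicate 1 the lowest of the LCCTam arrays and still above all of SUM44. Without SUM44 replicate 3 its adjusted p was 0.0501, and the alternatives spanned 5.23e-06 to 0.0501. UBE2C, the ubiquitin-conjugating enzyme of the APC/C, stood at 10.60, 10.60 and 10.52 in SUM44 and at 11.27, 11.44 and 11.56 in LCCTam. Its rise was 1.80-fold (0.85 ± 0.11, adjusted p = 0.00296), far beyond the spread within either group. ESPL1 (separase), the protease that cuts cohesin, stood at 8.19, 8.22 and 8.09 and at 8.75, 9.04 and 8.84. The groups did not overlap (0.71 ± 0.11, adjusted p = 0.00668), and a dimmer probe set gave 0.58 (adjusted p = 0.0245 among all probe sets). PTTG1 (securin), the inhibitor of separase, stood at 11.69, 11.77 and 11.31 in SUM44 and at 12.15, 12.12 and 11.98 in LCCTam. All LCCTam arrays were above SUM44, but the difference was not called (0.49 ± 0.14, adjusted p = 0.0572), and the settings that called it included the fit without LCCTam replicate 1 (adjusted p = 0.0465, range over alternatives 0.000668 to 0.184). The probe set of PTTG1 is of a type that can bind near-identical copies of the gene, so its value is uncertain.

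Among the cyclins, CDK1 and the phosphatases that start mitosis, 2 of 6 were called. CCNB2, a B-type cyclin, stood at 9.74, 9.65 and 9.55 in SUM44 and at 10.49, 10.50 and 10.26 in LCCTam. It rose 1.71-fold (0.78 ± 0.11, adjusted p = 0.00476) without overlap. CDC25C, a phosphatase that activates CDK1, stood at 6.93, 6.66 and 6.44 in SUM44 and at 7.61, 7.68 and 7.61 in LCCTam. The LCCTam arrays were nearly equal and all higher (0.95 ± 0.14, 1.94-fold, adjusted p = 0.00448), and of its dimmer probe sets one gave 0.73 (adjusted p = 0.00766) and the other 0.21 (adjusted p = 0.306). CCNB1, the main mitotic cyclin, stood at 9.87, 9.73 and 9.67 in SUM44 and at 10.08, 10.15 and 10.08 in LCCTam. Its groups did not overlap, yet the difference of 0.35 ± 0.10 was not called (adjusted p = 0.0586); it was called without LCCTam replicate 1 (adjusted p = 0.0404), with array weights (0.000328), among the brighter genes alone (0.0495) and when other genes' probe sets were averaged (0.0462). CCNB1 has 1 probe set, so that its own value of 0.35 was the same in the last of these, and the alternatives spanned 0.000328 to 0.210. CDK1 itself went another way, at 9.35, 8.79 and 9.15 in SUM44 and at 9.32, 8.64 and 8.07 in LCCTam. LCCTam replicate 1 lay within SUM44 and replicates 2 and 3 below it, so that the difference was not called (-0.42 ± 0.30, adjusted p = 0.394). Further probe sets of CDK1 gave -0.24 and -0.47, not called. CCNA2, the A-type cyclin of S and G2 phase (-0.08), and CDC25B, a phosphatase acting at centrosomes (-0.17), were not called either.

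**Figure D2:**
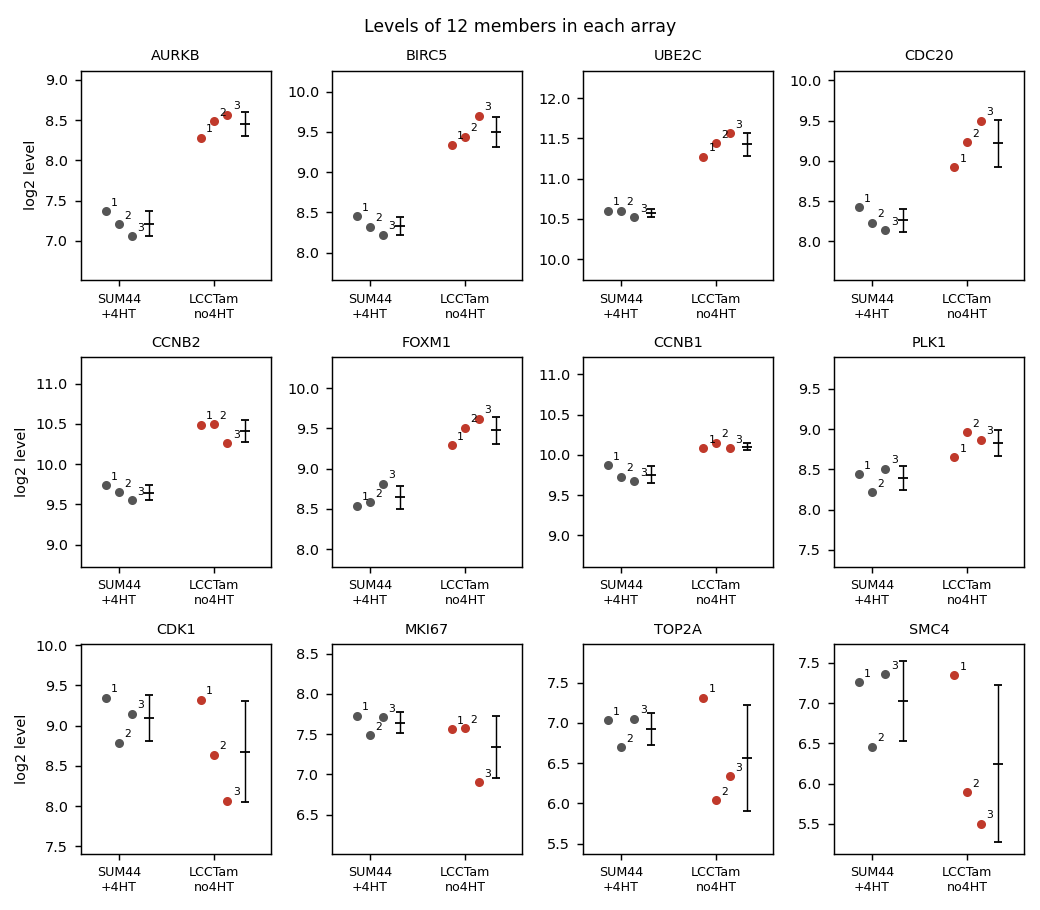
Log2 level of 12 members in each array, SUM44+4HT in grey and LCCTam-no4HT in red, with the replicate number beside each point and the mean ± SD (n = 3) to its right; every panel spans the same number of log2 units. In the upper 2 rows all LCCTam arrays lie above all SUM44 arrays, and in the lowest row LCCTam replicate 3 lies below every SUM44 array.

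Of the transcription factors of the programme, FOXM1, which activates G2/M genes, stood at 8.54, 8.58 and 8.81 in SUM44 and at 9.29, 9.51 and 9.62 in LCCTam. It rose 1.78-fold (0.83 ± 0.13, adjusted p = 0.00612) with no overlap. MYBL2, which joins MuvB before FOXM1 does, stood at 8.13, 8.03 and 8.21 and at 8.39, 8.97 and 8.33. All 3 LCCTam arrays were above SUM44, replicate 2 by the most, and the difference was not called (0.44 ± 0.18, adjusted p = 0.142).

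None of 6 kinases of the centrosome and spindle was called in the unweighted fit of all 6 arrays, and 2 had an unadjusted p under 0.05. PLK1, which acts from centrosome maturation to cytokinesis, stood at 8.44, 8.22 and 8.51 in SUM44 and at 8.65, 8.96 and 8.87 in LCCTam. The groups did not overlap (0.44 ± 0.13, adjusted p = 0.0599), and the settings that called it included the fit without LCCTam replicate 1 (0.53, adjusted p = 0.0116, range over alternatives 0.000124 to 0.213). AURKA, which organises the spindle poles, stood at 9.00, 8.71 and 8.71 and at 9.09, 9.16 and 8.79. LCCTam replicate 3 lay among the SUM44 arrays, and the difference was 0.21 ± 0.14 (adjusted p = 0.371), with further probe sets at 0.19 and -0.01. AURKA and AURKB, paralogs with separate sites of action, thus had differences of 0.21 and 1.23, a gap that was not tested. MELK (0.55), a kinase abundant in dividing tumour cells, was at 8.96, 8.65 and 7.97 in LCCTam and 7.88 to 8.14 in SUM44, and without LCCTam replicate 3 it was called (0.82, adjusted p = 0.00878, range 0.000168 to 0.380). PLK4 (-0.36), which sets centriole number, and NEK2 (-0.51), which splits centrosomes, were not called. PBK, a mitotic kinase, stood at 7.18, 6.49 and 7.02 in SUM44 and at 7.43, 5.91 and 5.52 in LCCTam. Its replicates 2 and 3 fell below every SUM44 array and replicate 1 above them all, and the difference was -0.61 ± 0.46 (adjusted p = 0.413).

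The 5 genes of the spindle assembly checkpoint were not called in the unweighted fit of all arrays (0 at an unadjusted p under 0.05), and their LCCTam arrays were spread widely. TTK (MPS1), the kinase at the head of the checkpoint, stood at 6.71, 6.07 and 6.44 in SUM44 and at 6.96, 5.54 and 5.09 in LCCTam. LCCTam replicate 1 was the highest of all 6 arrays and replicates 2 and 3 the lowest (-0.54 ± 0.44, adjusted p = 0.448). MAD2L1, the checkpoint protein that holds CDC20, was at 8.29, 7.87 and 6.49 in LCCTam and 7.45 to 7.72 in SUM44, a mean difference of 0.00 ± 0.41. BUB1B (BubR1, -0.17) had LCCTam levels of 8.75, 7.99 and 7.34. BUB1 (-0.26), the kinase that recruits the others, was the only member with all LCCTam arrays below all SUM44 arrays, at 6.74, 6.53 and 6.40 against 6.77 to 6.88. Its 4 further probe sets did not share that: they gave -0.59, 0.01, 0.03 and 0.06, none called, and the groups overlapped in each. BUB3, which brings BUB1 and BUB1B to kinetochores, differed by 0.06 in the probe set used and by -0.09 to -0.22 in 3 others, none called.

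At the kinetochore and centromere, 1 of 5 was called. CENPA, the histone that marks centromeres, stood at 8.65, 8.56 and 8.61 in SUM44 and at 9.00, 9.04 and 9.14 in LCCTam. Replicates were tight and the groups apart (0.45 ± 0.10, 1.37-fold, adjusted p = 0.0203). Dropping SUM44 replicate 1, 2 or 3 ended the call (adjusted p = 0.0773, 0.0899 or 0.0873), as did dropping LCCTam replicate 2 (0.0841); the alternatives spanned 9.84e-05 to 0.0899. CENPF (-0.18), a large corona protein, NDC80 (-0.00), the microtubule-binding subunit, and ZWINT (-0.03), which links the checkpoint to the kinetochore, were not called. CENPE, a kinetochore kinesin, was at 5.40, 5.27 and 5.14 in SUM44 and at 5.19, 5.18 and 4.85 in LCCTam, a dim signal whose groups overlapped (-0.20 ± 0.13, adjusted p = 0.359).

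Of 6 mitotic kinesins, the motors of spindle and midzone, 1 was called. KIF20A, which carries the passenger complex to the midzone, stood at 7.49, 7.48 and 7.20 in SUM44 and at 8.25, 8.51 and 7.77 in LCCTam. It rose 1.72-fold (0.78 ± 0.19, adjusted p = 0.0341), and no array of one group lay within the other. It was no longer called when SUM44 replicate 1, 2 or 3 was dropped (adjusted p = 0.0963, 0.0896 or 0.135), when LCCTam replicate 2 was (0.116), or after cyclic loess (0.102), and the alternatives spanned 1.12e-05 to 0.135. KIF2C (0.22), a microtubule depolymeriser, KIF4A (0.20), which narrows the midzone, and KIF23 (0.14), a part of centralspindlin, were not called. KIF11 (Eg5), which pushes spindle poles apart, was at 6.18, 5.17 and 5.87 in SUM44 and at 6.75, 5.35 and 4.98 in LCCTam, with wide spread in both groups (-0.05 ± 0.46). KIF14, a kinesin of cytokinesis, was at 5.28, 4.86 and 5.30 and at 4.88, 4.57 and 4.69. Its groups overlapped only between LCCTam replicate 1 and SUM44 replicate 2, at a dim signal (-0.43 ± 0.15, adjusted p = 0.101).

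Among 10 proteins of spindle and midzone, 1 was called. TROAP, a microtubule-associated protein of the spindle, stood at 8.09, 8.21 and 8.13 in SUM44 and at 8.43, 8.77 and 8.91 in LCCTam. It rose 1.47-fold (0.56 ± 0.14, adjusted p = 0.0366) without overlap, and kept its call in 1 of 6 fits that left out an array, the one without LCCTam replicate 1 (adjusted p = 0.00175). The adjusted p was 0.138, 0.0959 or 0.129 with SUM44 replicate 1, 2 or 3 dropped, 0.141 or 0.0607 with LCCTam replicate 2 or 3 dropped, and 0.0519 after cyclic loess; the alternatives spanned 2.94e-05 to 0.141. SPAG5 (astrin, 0.33) and TACC3 (0.16), which stabilise spindle fibres, had groups that did not overlap and were not called. TPX2, the activator of AURKA, was at 9.94, 9.89 and 9.39 in LCCTam and 9.32 to 9.45 in SUM44 (0.34, adjusted p = 0.196), and without LCCTam replicate 3 it was called (0.52, adjusted p = 0.0160, range 0.000233 to 0.462). RACGAP1 (-0.11), PRC1 (-0.29) and ECT2 (-0.31), which set the cleavage plane, NUSAP1 (-0.15), a microtubule bundler, and HMMR (-0.43), a spindle-pole protein, were not called. DLGAP5 (HURP), which stabilises fibres near chromosomes, stood at 6.98, 6.39 and 6.77 in SUM44 and at 7.43, 5.72 and 5.67 in LCCTam. LCCTam replicate 1 was above, and replicates 2 and 3 below, all SUM44 arrays (-0.44 ± 0.45, adjusted p = 0.542).

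Among the genes of chromosome structure, calls differed within one complex, and the gaps between its subunits were not tested. Condensin I subunits NCAPD2 and NCAPH were higher, while its subunit NCAPG (-0.32) and the ATPases SMC2 (-0.35) and SMC4, which condensin I and II share, were not called. NCAPD2 stood at 8.01, 7.98 and 7.96 in SUM44 and at 8.59, 8.88 and 8.69 in LCCTam. Its rise was 1.67-fold (0.74 ± 0.11, adjusted p = 0.00515). NCAPH stood at 7.55, 7.55 and 7.35 and at 7.94, 8.15 and 7.82, a 1.40-fold rise without overlap (0.49 ± 0.12, adjusted p = 0.0380). That call ended when SUM44 replicate 1, 2 or 3 was dropped (adjusted p = 0.105, 0.0973 or 0.151), when LCCTam replicate 2 was (0.147), or after cyclic loess (0.129); the alternatives spanned 3.51e-05 to 0.151. SMC4 stood at 7.26, 6.46 and 7.36 in SUM44 and at 7.35, 5.89 and 5.50 in LCCTam. It had the lowest difference of the 53, which was within its spread (-0.78 ± 0.47, adjusted p = 0.309), and its further probe sets gave -0.71 and -0.08. TOP2A, which untangles sister chromatids, was at 7.03, 6.70 and 7.05 in SUM44 and at 7.31, 6.04 and 6.34 in LCCTam. Replicate 1 lay above and replicates 2 and 3 below the SUM44 arrays (-0.36 ± 0.30, adjusted p = 0.462). MKI67, the proliferation marker Ki-67, was at 7.73, 7.49 and 7.71 in SUM44 and at 7.56, 7.57 and 6.90 in LCCTam. Its groups overlapped (-0.30 ± 0.19, adjusted p = 0.338), and its 3 further probe sets gave -0.04 to -0.09, none called.

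Many members differed among the LCCTam arrays. LCCTam replicate 3 lay below LCCTam replicate 1 for 39 of the 53 genes (73.6%), beside 34.0% of all genes, and LCCTam replicate 1 was the highest LCCTam array for 31 (58.5%), beside 26.0%. Medians of the members against the SUM44 mean were 0.38, 0.08 and -0.17 in LCCTam replicates 1, 2 and 3, where those of all genes were -0.01, 0.09 and 0.16. The pooled medians hide a split: they were 0.28, -0.08 and -0.44 over the 40 members not called and 0.66, 0.87 and 0.77 over the 13 called. A call depends on the spread of these same arrays (median LCCTam SD 0.37 and 0.15), so the split is a description and nothing is read from it. The interquartile range widened with it, from 0.19 to 0.61 in replicate 1 to between -0.74 and 0.38 in replicate 3. The median SD within LCCTam was 0.29 over members and 0.19 over all genes. In SUM44 the median SDs were 0.15 and 0.11, and SUM44 replicate 2 was the lowest SUM44 array for 32 of 53 members (60.4%) beside 29.3% of all genes. Across the 53 genes, SUM44 replicate 2 minus the mean of replicates 1 and 3 correlated with LCCTam replicate 3 minus replicate 1 at r = 0.69, and across all 11963 genes at r = 0.56. The 40 members not called gave r = 0.62 and the 13 called r = -0.46. A call favours genes with little spread within these same groups, so nothing is read from that contrast either. These are correlations across genes that share the same arrays, and genes are not independent replicates. The spike-in levels given above, 7.10, 7.45 and 7.70, differ among the same LCCTam arrays, and their part in the pattern was not tested.

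**Figure D3:**
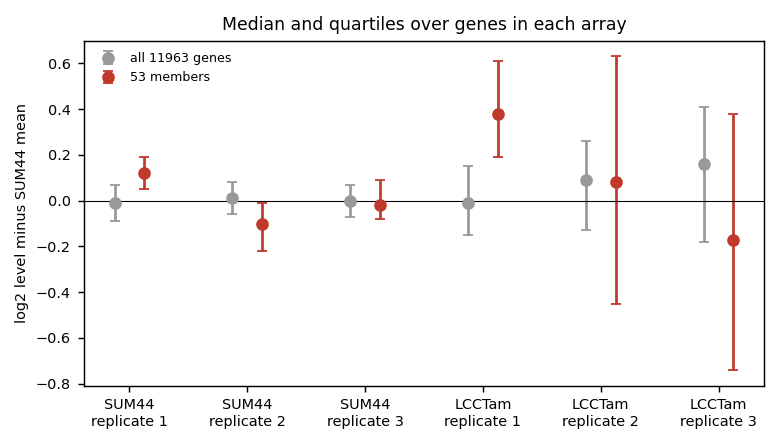
Median (point) and quartiles (bars) over genes of the log2 level minus the SUM44+4HT mean in each array, for the 53 members in red and all 11963 genes in grey. The members' median is 0.38 in LCCTam replicate 1 and -0.17 in LCCTam replicate 3, while that of all genes goes from -0.01 to 0.16.

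**Figure D4:**
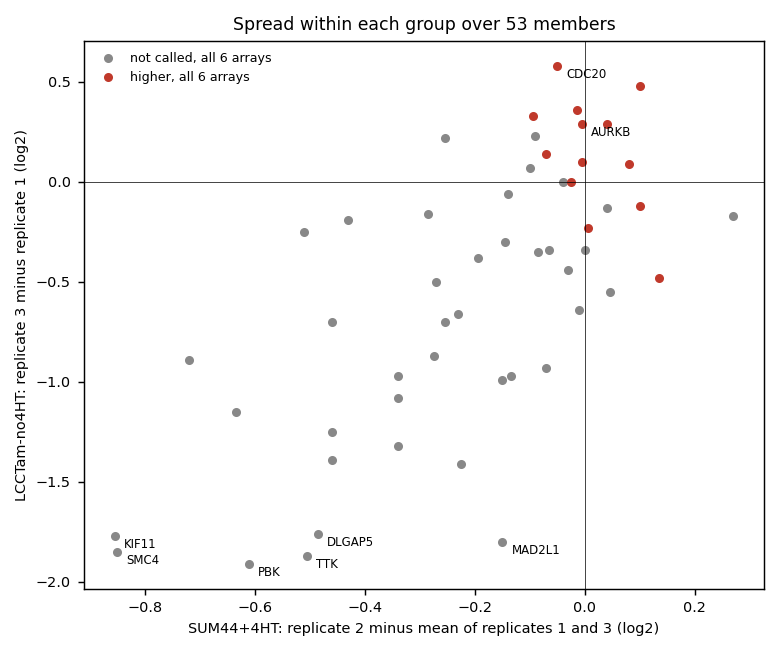
Each point is a member: SUM44+4HT replicate 2 minus the mean of replicates 1 and 3 on the x axis, LCCTam-no4HT replicate 3 minus replicate 1 on the y axis, both in log2 units, with members called higher in red. KIF11, SMC4, PBK and TTK lie at the lower left, and the called members lie near 0 on the x axis.

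With LCCTam replicate 1 left out, 12 members were lower in LCCTam: SMC4 (-1.33), PBK (-1.18), TTK (-1.09), DLGAP5 (-1.02), NEK2 (-0.90), CDK1, HMMR and TOP2A (each -0.74), ECT2 (-0.71), KIF14 (-0.52), PLK4 (-0.49) and BUB1 (-0.35), at adjusted p = 0.00174 to 0.0405. ECT2 (means 4.71 in SUM44 and 4.41 in LCCTam over all arrays) and KIF14 (5.15 and 4.71) lay below the lower quartile of 5.93, where a signal may be background. With all 6 arrays, further probe sets of BUB1 gave -0.59, 0.01, 0.03 and 0.06. All 12 were uncalled in the unweighted fit of all 6 arrays, and none was called in the other 5 fits that left out an array. With array weights, which gave LCCTam replicate 2 a weight of 43.9 and replicates 1 and 3 0.168 each, all 12 were called lower. That weighted fit called 2705 of all 11963 genes lower and 4316 higher, and its LCCTam side rested almost wholly on replicate 2. Since replicate 2 is also in the fit without replicate 1, the weighted calls are not a separate check of the 12. In the unweighted fit without LCCTam replicate 1, the 13 members named above remained called higher and were joined by CCNB1, PLK1 and PTTG1. Of the 13, AURKB, BIRC5, CCNB2, CDC25C, ESPL1, FOXM1, NCAPD2 and UBE2C kept their call in each of the 6 fits that left out an array. The members called higher numbered 9, 9 or 8 with SUM44 replicate 1, 2 or 3 dropped, and 9 or 14 with LCCTam replicate 2 or 3 dropped. Over all 11963 genes the same fits called 490, 469 and 448, and 430 and 1032, higher. All 13 were in the brighter part of the genes, with a mean over arrays above 7.11 (the median), as were 38 of the 53, and 8 of the 53 lay below the lower quartile, where a dim signal limits what can be seen.

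**Figure D5:**
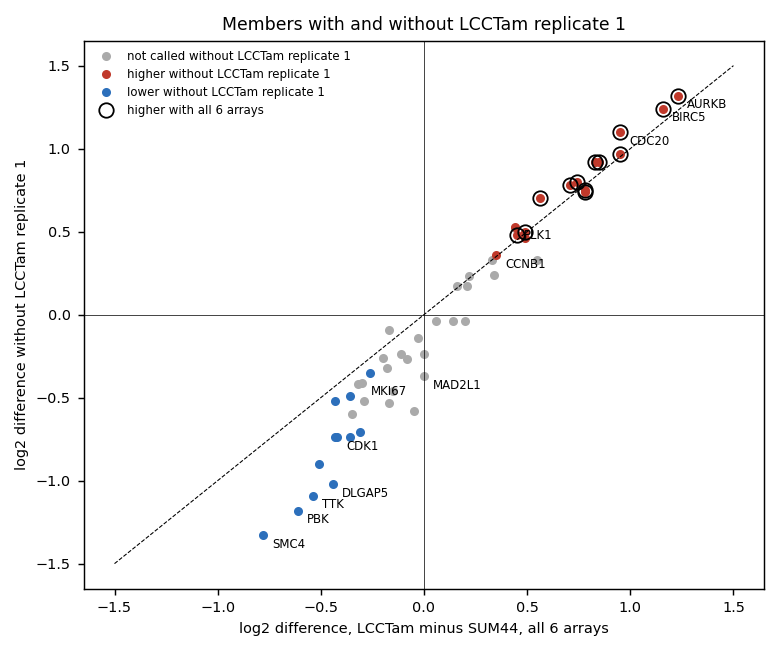
Log2 difference (LCCTam minus SUM44) of each member with all 6 arrays on the x axis and without LCCTam replicate 1 on the y axis, with equal values on the dashed line; both fits share 5 arrays. AURKB, BIRC5 and CDC20 are at or above 0.95 on both axes, while SMC4, PBK, TTK and DLGAP5 move from between -0.44 and -0.78 to between -1.02 and -1.33.

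Probe sets of one gene mostly gave the same direction. Of the 53 genes 19 had more than 1 probe set, and 24 of 33 further probe sets had the sign of the one used. Of 5 further probe sets of called members, 4 were called higher, and of 28 further probe sets of members not called, none was called. FOXM1, CENPA, CDK1 and BUB3 were, like PTTG1, read from probe sets whose suffix warns of binding to related transcripts. By chromosome, 4 of the 5 members on chromosome 12 were called higher (FOXM1, NCAPD2, ESPL1 and TROAP, but not RACGAP1), where 5.49% of the 674 genes measured on that chromosome were. None of the 6 members on chromosome 4 or the 5 on chromosome 10 was called, where 2.65% and 3.77% of the genes there were higher. No rule set beforehand chose these chromosomes. On chromosomes 2, 17 and 5, 2 of 3, 2 of 4 and 2 of 5 members were called higher, where 6.09%, 11.3% and 6.31% of the genes there were. Chromosomes 1, 15 and 20 each had 1 of 5 members called, and the rest, with 1 or 2 members each, had none.

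Other genes of the pathway, 89 measured of 111 listed by role (also with earlier results known), gave 15 higher and 4 lower. That is 16.9% higher and 4.49% lower, where 9.18% of all genes tested were called higher and 6.6% lower. In the control of mitotic entry, 5 of 15 were higher and 1 lower: CKS2 (0.72, adjusted p = 0.005) and CKS1B (0.80, 0.00654), small subunits of CDK complexes, PKMYT1 (0.76, 0.0102), an inhibitory kinase of CDK1, LIN37 (1.02, 0.0107), a MuvB subunit, and TFDP1 (0.40), the partner of E2F. RBL2 (p130), the pocket protein with which MuvB represses cell cycle genes in resting cells, fell by 1.32 (adjusted p = 0.0266), from 9.74, 9.50 and 10.03 in SUM44 to 9.03, 8.52 and 7.76 in LCCTam. Every LCCTam array was below SUM44, replicate 3 by the most. Of 11 APC/C genes, UBE2S, which extends the ubiquitin chain after UBE2C, rose by 0.99 ± 0.13 (adjusted p = 0.00275), the scaffold subunit CDC27 fell by 0.42 (0.0292), and 9 were not called. Of 29 other kinetochore, centromere and checkpoint genes, 5 were higher and none lower, with 6 at an unadjusted p under 0.05. They were MAD1L1, the checkpoint partner of MAD2L1 (1.36 ± 0.16, adjusted p = 0.00195), SKA1 (0.41), CENPT (0.80), CENPM (0.60) and CDCA8 (borealin), another subunit of the passenger complex (0.59, adjusted p = 0.0468). CDCA8, TFDP1 and INCENP, the scaffold of that complex, which was not called (0.19), were chosen for naming after their values were seen. RBL2 above and TUBG1 below were also named outside the rule of at most 4 called genes a list. Of 22 other spindle and cytokinesis genes, 4 were higher (KIF22, 1.12, adjusted p = 0.00178; KIFC1, 0.64, 0.00672; CDCA3, 0.53; TUBG1, 0.39) and CLASP2, a microtubule stabiliser, was lower (-0.75). Of 12 cohesin and condensin II genes, STAG1, a cohesin subunit, was lower (-0.57, adjusted p = 0.0409) and none was higher, and the list had a median of -0.47. Without LCCTam replicate 1, 8 of these 12 were lower (66.7%) and 1 was higher (8.33%). In that fit the other genes together gave 22 higher (24.7%) and 23 lower (25.8%), where 18.7% and 16.8% of all genes were called higher and lower.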

How the data were processed

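RNA from 6 samples was measured on 6 Affymetrix arrays, 3 per group, with groups taken from the sample titles. The deposited values are log2 levels that the authors made with RMA (background correction, quantile normalisation and a summary of probes), as the series' design text and, per the submitters' processing notes, its tool list say; the version is not given in the sources used here. Such scaling hides a change in total RNA per cell. No detection calls were used, so a dim level may be background, and the number of arrays limits the precision.

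Of 22283 probe sets, 68 controls were left out, 19065 had 1 gene in the platform annotation, 1043 several and 2107 none listed; symbols of 19053 were updated by gene ID through the RefSeq table of GRCh38.p14, which also gave chromosomes. Several probe sets were annotated to 4310 of the 11963 genes. The test was that of limma 3.58.1 (lmFit, then eBayes) under R 4.3.3, two-sided, with Benjamini-Hochberg adjustment over all 11963 genes and calls at an adjusted p under 0.05. Errors of differences are standard errors of the fit. The fit was tested on simulated data with 200 of 11963 genes changed. There it recovered 33.2%, 71.3% and 94.9% of changes of 1.5-, 2- and 4-fold, and 4.39% of calls were false. The real fit called 1888 genes, and recovery depends on the share of genes changed, so these rates may not carry over. The simulated noise was drawn independently for each array, so deviations shared between real arrays were not part of it. Small changes can thus be missed among genes not called. Promoter sequences are from RefSeq. Members, lists and tests were chosen with earlier results of these data known. Values in every array were given for called members, for 10 members set by name and for the lowest member of each role; of each further list at most 4 called genes, by smallest adjusted p, were to be named. Promoters were those of the called members with the smallest adjusted p and of the members with the lowest difference, among those with a window outside chromosome 8.

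Alternatives were averaging all probe sets per gene, testing every probe set, robust fitting with an intensity trend, cyclic loess, weighting of arrays, median centring, 2 filters on dim genes, each array left out, a replicate block and an adjusted p under 0.01.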

Additional observations from a re-analysis of the deposited data

How the results depend on the processing

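Leaving out each array in turn gave 751 to 4241 called genes (1888 with all arrays), 8 to 16 members higher and 0 to 12 lower, the extremes for members coming without SUM44 replicate 3 and LCCTam replicate 1. Array weights, which gave LCCTam replicate 2 a weight of 43.9 and replicates 1 and 3 0.168 each, gave 7021 genes (4316 higher, 2705 lower), 22 members higher and 15 lower. An adjusted p under 0.01 gave 723 genes and 9 members higher. Keeping the brighter genes, those over the median level, left 38 members with a median difference of 0.33, since dim members drop out. Differences changed sign only for members not called with all arrays: BUB3 with the mean of its probe sets (-0.10); CCNA2 (0.07), ZWINT (0.05) and RACGAP1 (0.01) with array weights; MAD2L1 after cyclic loess (-0.12) and median centring (-0.01). When arrays were left out, they did so for MAD2L1 (range -0.37 to 0.53), NDC80 (-0.24 to 0.12), KIF11 (-0.58 to 0.31), ZWINT (-0.14 to 0.11), CCNA2 (-0.27 to 0.20), BUB1B (-0.53 to 0.17), PRC1 (-0.52 to 0.02), RACGAP1 (-0.24 to 0.08), NUSAP1 (-0.46 to 0.20), BUB3 (-0.04 to 0.18), KIF23 (-0.04 to 0.30) and KIF4A (-0.04 to 0.40); the cause was not tested. Of the values of single members under the alternatives, 725 kept direction and side of the threshold, 47 gained a call, 25 lost one and 28 changed sign. The replicate block gave 2152 genes, 14 members higher and 0 lower; deviations of same-numbered arrays correlated at 0.49, 0.349 and -0.054, so the numbers were not taken to pair the samples.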
